A study of Yarrowia lipolytica with 9 samples.

Results

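The very short coding transcripts of the oleaginous yeast Yarrowia lipolytica are described here. They are the features with a RefSeq transcript accession (XM_), a coding length of at most 300 bp and a mean of at least 1 CPM (the count scaled to the total of its library) over 9 libraries. Of 6366 features in the deposited tables, 5959 have such an accession, 176 of these are at most 300 bp long, and 150 of the 176 reached the level. The members were thus chosen by their measured length and mean level, so both are given as a description and carry no test. Differences among strains were not used in the choice.

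Short open reading frames of yeasts encode many small, stable proteins that work as parts of larger assemblies, among them subunits of the ribosome and of the respiratory chain and the chaperones of the space between the mitochondrial membranes. Such genes are often transcribed strongly, because their products are needed in amounts equal to those of their larger partners. They are also the hardest genes to annotate and to count, since few fragments fit within them. The table of gene names used here gives locus tags without product names, so no function is assigned to any member.

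Total RNA was sequenced from 3 strains named yl_10, yl_11 and yl_12, with 3 libraries each. The labels derive all strains from Y. lipolytica ATCC 201249 and say that every one carries heterologous genes, which they do not list. All cultures were grown in flasks for 72 h at 28 °C and 250 rpm. The series is said to compare strains that make different amounts of lycopene, a red carotenoid. No amount is tied to a strain and no parent is named, so all pairs were compared and no strain serves as a control. Whether the 3 libraries of a strain were separate cultures is not stated, and p-values then measure only the spread between libraries, which may be technical. In these bulk samples fewer cells expressing a transcript and less of it per cell cannot be told apart.

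Library totals ran from 7035777 to 16424183 counts. Within each strain the library least like the others was yl_10 replicate 3, yl_11 replicate 1 and yl_12 replicate 3. The deviations of these 3 libraries from their strain means correlated with each other at r from 0.31 to 0.51 across 5942 features, which share libraries and are not independent. For the set and for some single members, results are given with and without these libraries.

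The members were between 78 and 300 bp long, with a median of 249 bp against 1239 bp for all features with an XM_ accession. Each of the 150 lengths was a multiple of 3, so they are coding lengths without untranslated parts. In 6 members the coding sequence was shorter than the 150 bp of a single read, and a full-length read counted for them must reach beyond the coding sequence. For these the FPKM (fragments per kilobase of coding length, scaled to library size) divides by less sequence than the reads could fall on. Of the 150 members, 143 were shorter than 2 such reads, so this may bear on most of the set. How far it raises the levels of the members beside longer genes was not tested.

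Per length the members were abundant, with a median of 81.4 FPKM against 37.7 FPKM for all XM_ features. Their range was wide, from 4.06 to 11557 FPKM, and 7 of the 20 features with the highest FPKM in the whole table were members. In counts most were scarce, with a median of 18.4 CPM against 47.5 CPM for all XM_ features. Only 29 of the 150 reached 100 CPM, and 51 lay below 10 CPM. The 5 most counted members held 51.6% of all counts of the 150, and the 10 most counted held 71.2%.

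**Figure D1:**
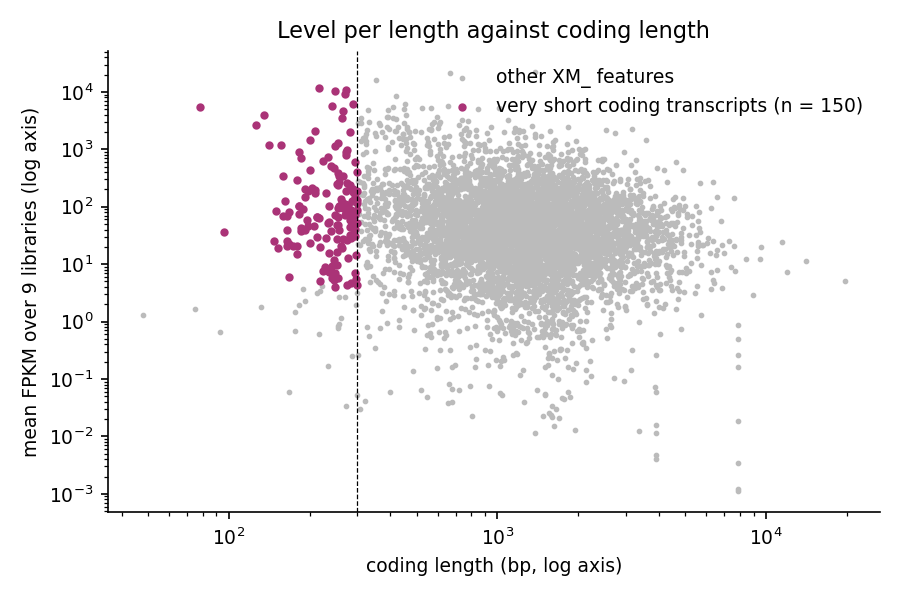
Mean FPKM over 9 libraries against coding length for each XM_ feature, both on log axes. The 150 very short transcripts are purple, other XM_ features are grey and the dashed line marks 300 bp. The highest member lies at 11557 FPKM, and the shortest, at 78 bp, lies at 5424 FPKM.

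The member with the highest level per length was YALI1_D06233g (XM_002143009.1, 216 bp), at 11557 FPKM. YALI1_F03215g (XM_002143065.1, 273 bp) followed at 10955 FPKM, YALI1_E41367g (XM_002143064.1, 249 bp) at 10259 FPKM and YALI1_D09712g (XM_002143013.1, 270 bp) at 9028 FPKM. These 4 stood apart from the rest of the members. YALI1_C26332g (XM_002143001.1, 291 bp) was next at 6265 FPKM, then YALI1_F14933g (XM_505280.1, 243 bp) at 5789 FPKM and XM_002142951.1 at 5424 FPKM. The last 3 of the 10 were XM_500328.1 (267 bp) at 4624 FPKM, XM_002143076.1 (135 bp) at 3929 FPKM and YALI1_D17108g (XM_502803.1, 264 bp) at 3534 FPKM.

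XM_002142951.1 is the shortest member, with 78 bp of coding sequence, and its level shows how the libraries of a strain can differ. It had 475, 496 and 331 CPM in the libraries of yl_10, then 476, 435 and 454 CPM in yl_11 and 328, 342 and 472 CPM in yl_12. In yl_10 replicate 3 was the low library and in yl_12 replicate 3 was the high one, so the strains overlapped. None of its contrasts was called, with log2 fold changes of 0.09 (SE 0.18) for yl_11 against yl_10, -0.13 (SE 0.18) for yl_12 against yl_10 and -0.22 (SE 0.18) for yl_12 against yl_11.

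Accessions with a nine-digit number were common among the members. They made up 61 of the 150, out of 147 such accessions in the whole table, and 43.5% of the 147 were at most 300 bp long. Of the 10 members with the highest FPKM, 7 were of this kind. Their median was 102 FPKM, against 62.3 FPKM for the 89 members with a six-digit number. Locus tags of assembly ASM176148v1 could be matched to 93 of the 150 (62.0%), a smaller share than the 91.1% of all XM_ features.

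At the edge of the length rule, YALI1_E23313g (XM_002143040.1) and YALI1_E37603g (XM_002143054.1) had 300 bp, and YALI1_E35963g (XM_002143052.1) and YALI1_B18265g (XM_500853.1) were left out with 303 bp. Of these, YALI1_E35963g was the most abundant, at 882 CPM. At the edge of the level rule XM_002142999.1 had 1.003 CPM and XM_501291.1 had 1.01 CPM, while XM_502659.1 was left out at 0.931 CPM and XM_002142956.1 at 0.906 CPM. Means of at least 1 CPM were found in each strain for 147 members and levels of at least 1 CPM in all 9 libraries for 138. All 150 passed the expression filter of the test.

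As a set the members took a share of library counts that ran from 1.98% to 2.66%, with both extremes in a replicate 3, that of yl_10 and that of yl_12. The share was 2.34%, 2.30% and 1.98% of the counts in the libraries of yl_10, then 2.57%, 2.57% and 2.52% in yl_11, and 2.24%, 2.28% and 2.66% in yl_12. Every library of yl_11 lay above every library of yl_10, and yl_12 spanned both. The means were 2.21% ± 0.20 (SD, n = 3) in yl_10, 2.56% ± 0.03 in yl_11 and 2.39% ± 0.23 in yl_12. Of summed FPKM, which weights short features more, the members held 9.96% ± 0.81, 11.2% ± 0.13 and 10.5% ± 0.85.

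**Figure D2:**
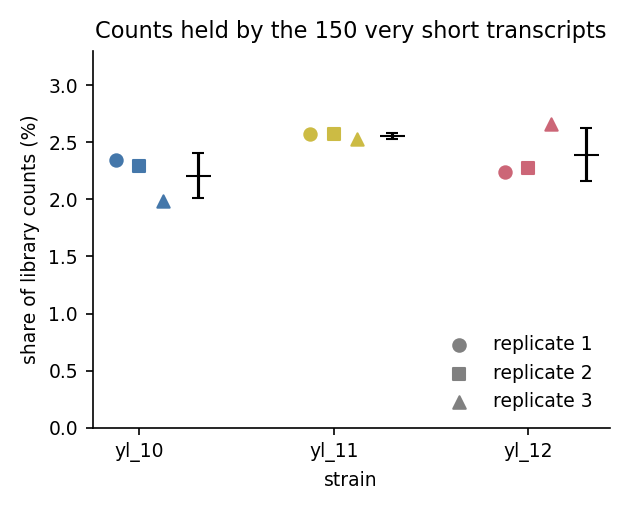
Share of library counts (%) held by the 150 very short transcripts, by strain. Each symbol is a library, with its shape giving the replicate number, and the bar is the mean with SD over 3 libraries. Replicate 3 is the lowest library of yl_10 at 1.98% and the highest of yl_12 at 2.66%, while the libraries of yl_11 lie within 2.52% to 2.57%.

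In several libraries most members lay on the same side of the mean of their strain. In yl_10 replicate 3, 122 of the 150 members were below it, with a median deviation of -0.18 on the log2 CPM scale, while 121 were above it in replicate 1 and 104 in replicate 2, with medians of 0.12 and 0.07. In yl_12 replicate 3, 117 members were above it, with a median deviation of 0.12, where replicates 1 and 2 had medians of -0.08 and -0.06. For yl_11 the 3 medians lay between -0.01 and 0.01. The other tested XM_ features, nearly all of them longer, deviated less, with medians between -0.04 and 0.02 in the 9 libraries.

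These deviations were largest in the shortest class. Among features with at least 10 counts in every library, the median deviation in yl_10 replicate 3 was -0.18 for 138 features of at most 300 bp, -0.06 for those above 300 and up to 600 bp and -0.01 for those over 3000 bp. In yl_12 replicate 3 it was 0.11, 0.04 and -0.01 for the same classes, and it was lowest between them, at -0.03 above 900 and up to 1500 bp and -0.04 above 1500 and up to 3000 bp. In the classes up to 600 bp the 2 libraries thus deviated in opposite directions, while above 900 bp their medians were both negative. In both libraries the shortest class was moved the most.

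**Figure D3:**
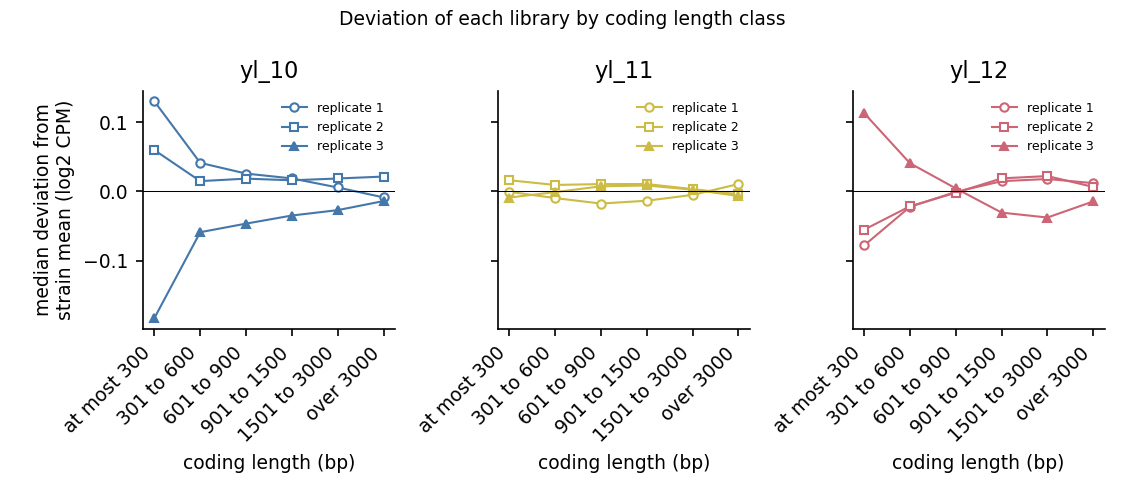
Median deviation of each library from the mean of its strain (log2 CPM) by class of coding length (bp), with a panel for each strain and a line for each library. In the class of at most 300 bp, replicate 3 lies at -0.18 in yl_10 and at 0.11 in yl_12, while the libraries of yl_11 stay near 0 in all classes.

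Short transcripts varied more between libraries than longer ones of the same count level. The median SD within strains, on the log2 scale, was 0.19 for the 150 members and 0.10 for the 5638 other tested XM_ features, nearly all of them longer. From 10 to 100 CPM it was 0.17 for 70 members and 0.10 for 2867 longer features, and from 100 to 1000 CPM 0.17 for 22 and 0.06 for 1720. From 1 to 10 CPM, where counting noise is large for every gene, the medians were closer, at 0.26 and 0.24. Members and longer features share libraries, and no test was made of this difference.

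Among the 3 strains 12 of the 150 members (8.0%) passed the F test (edgeR, adjusted p below 0.05), against 15.0% of the 6147 features tested. The mean was lowest in yl_10 for 10 of the 12 and lowest in yl_12 for the other 2. The smallest adjusted p-values belonged to XM_501880.1 (0.000129), YALI1_F14933g (0.000363), XM_505464.1 (0.000487), YALI1_C26332g (0.00323) and YALI1_C18209g (0.0041). With all 9 libraries edgeR called none of the 51 members below 10 CPM, in this test or in any contrast. Few longer XM_ features of that level were called either. Of the 841 from 1 to 10 CPM, 4.99% were called in this test. In the contrasts their share ran from 0.832% in yl_11 against yl_10 to 5.83% in yl_12 against yl_10. At an unadjusted p below 0.05 in the F test there were 41 of the 150 members, against 29.7% of all features. DESeq2 called 17 members (11.3%), against 15.7% of all features. The count was 36 in place of 12 without yl_12 replicate 3, when 1232 of 6159 features were called.

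In yl_12 against yl_10, 13 of the 150 members (8.67%) were called, 10 higher and 3 lower, against 14.8% of all features, 7.00% higher and 7.81% lower. Among the called members XM_505464.1 (168 bp) rose the most and YALI1_C18209g (XM_501783.1, 183 bp) fell the most, and these were the 2 called with at least a 2-fold change. With library totals as the only scaling, 8 members were higher and 6 lower, where 17.2% of all features were called, 4.29% higher and 12.9% lower.

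A larger value that was not called belonged to YALI1_E33336g (XM_002143050.1, 261 bp), picked out after its values were seen. It had 3.62, 2.17 and 0.142 CPM in the libraries of yl_10, then 7.73, 3.22 and 4.91 CPM in yl_11 and 6.0, 7.70 and 13.8 CPM in yl_12. The libraries of yl_12 lay above those of yl_10, those of yl_11 overlapped both, and the lowest library, yl_10 replicate 3, held 1 count. Its log2 fold change was 2.07 in yl_12 against yl_10 (edgeR adjusted p = 0.0706, SE 0.63) and 1.22 with 6 libraries (adjusted p = 7.43e-05), where the 3 libraries that stand apart were left out. Leaving out the least similar library of each strain lowers the spread by construction, so the second p-value cannot be set beside the first.

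XM_505464.1, a scarce transcript with no locus tag, had 7.38, 8.67 and 4.12 CPM in the libraries of yl_10, 13.6, 10.1 and 13.2 CPM in yl_11, and 21.0, 24.3 and 19.2 CPM in yl_12. The libraries of the 3 strains did not overlap, and the strains were ordered from yl_10 through yl_11 to yl_12. In yl_12 against yl_10 its log2 fold change was 1.70 (edgeR adjusted p = 0.000193, SE 0.20), and this call held in all 19 alternatives. Its smallest count was 29, in yl_10 replicate 3.

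YALI1_C18209g moved the other way. It had 34.8, 32.0 and 23.5 CPM in yl_10, then 24.9, 15.6 and 18.2 CPM in yl_11, and 6.43, 5.69 and 10.4 CPM in yl_12. Every library of yl_12 was below every library of the other strains, while yl_10 and yl_11 overlapped. The log2 fold change of yl_12 against yl_10 was -1.95 (edgeR adjusted p = 0.00161, SE 0.27), between -2.41 and -1.78 over 19 alternatives, all of them called. Its neighbour YALI1_C18258g (XM_501784.1) was higher in yl_12, with a log2 fold change of 0.42 (adjusted p = 0.00549, SE 0.09).

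XM_501880.1, with 150 bp of coding sequence and no locus tag, separated yl_10 from both other strains. The libraries of yl_10 had 8.08, 8.91 and 7.68 CPM, those of yl_11 had 14.2, 14.9 and 15.7 CPM, and those of yl_12 had 15.4, 14.9 and 15.6 CPM. The libraries of yl_11 and yl_12 overlapped and lay well above yl_10. The log2 fold change was 0.95 (edgeR adjusted p = 7.86e-05, SE 0.10) for yl_12 against yl_10, and 0.88 (adjusted p = 0.000643, SE 0.10) for yl_11 against yl_10. Both calls held in all 19 alternatives, and both comparisons use the libraries of yl_10.

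YALI1_F14933g (XM_505280.1) showed the same order at a far higher level. It had 1232, 1164 and 1088 CPM in yl_10, then 1572, 1488 and 1473 CPM in yl_11, and 1481, 1515 and 1647 CPM in yl_12. Again yl_11 and yl_12 overlapped, and neither reached down to yl_10. Its log2 fold changes were 0.47 (edgeR adjusted p = 0.000209, SE 0.06) for yl_12 and 0.40 (adjusted p = 0.00268, SE 0.06) for yl_11 against yl_10, called in all 19 alternatives. The fold in yl_11 was 0.23 with the coding length trend of each library removed.

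XM_002143006.1 (162 bp) had 18.2, 15.5 and 14.9 CPM in yl_10, then 25.0, 19.9 and 19.4 CPM in yl_11, and 21.2, 22.3 and 27.0 CPM in yl_12. The libraries of yl_12 were all above those of yl_10, and those of yl_11 lay among those of yl_12 or just below. The log2 fold change of yl_12 against yl_10 was 0.58 (edgeR adjusted p = 0.0116, SE 0.13), called in all 19 alternatives.

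Both smaller falls were of transcripts with 282 bp. YALI1_E11351g (XM_503725.1) had 20.6, 17.6 and 18.2 CPM in yl_10, then 17.2, 18.9 and 17.4 CPM in yl_11, and 13.3, 12.7 and 15.2 CPM in yl_12, so that yl_12 alone was low. YALI1_E06119g (XM_503577.1) had 29.6, 26.9 and 22.9 CPM in yl_10, then 21.3, 23.8 and 26.2 CPM in yl_11, and 20.8, 20.4 and 17.3 CPM in yl_12. Its yl_11 libraries spanned part of the range of yl_10. The log2 fold changes of yl_12 against yl_10 were -0.40 (edgeR adjusted p = 0.0229, SE 0.11) and -0.40 (adjusted p = 0.0283, SE 0.11). The call of YALI1_E11351g was lost in a fit of these strains alone (adjusted p = 0.0563) and without yl_10 replicate 1 (0.118), yl_12 replicate 1 (0.0813) or yl_12 replicate 2 (0.0929). That of YALI1_E06119g was lost without yl_10 replicate 1 (0.15) or 2 (0.0682) and without yl_12 replicate 2 (0.0591) or 3 (0.0712).

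**Figure D4:**
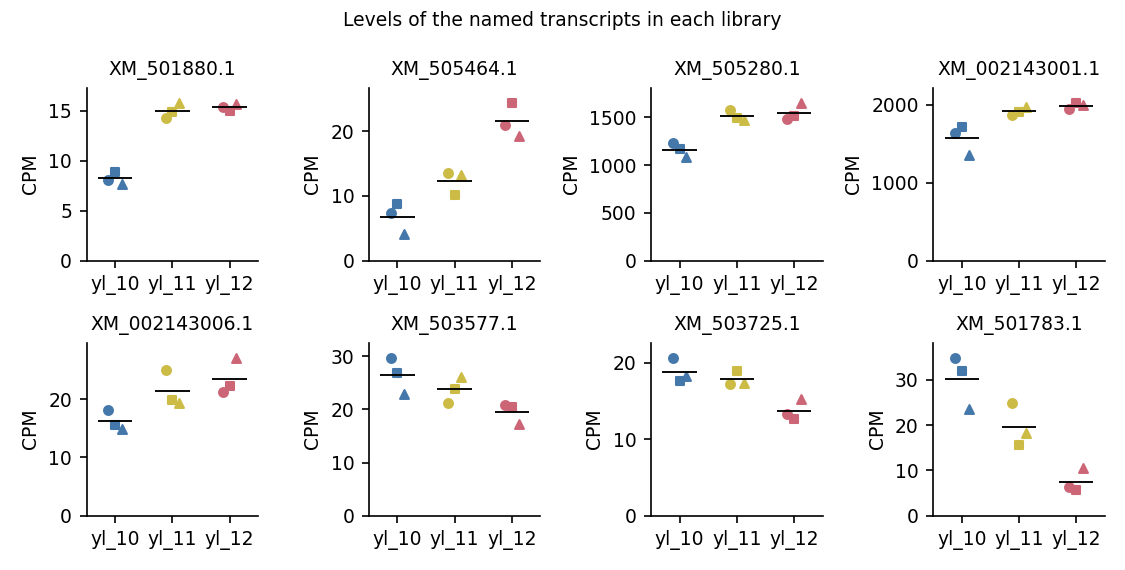
CPM of 8 named transcripts in each library, on axes that start at 0, by strain. Symbols give the replicate number and the line is the mean of 3 libraries. XM_501880.1 and XM_505280.1 are low in yl_10 only, while XM_501783.1 falls to 5.69 CPM in a library of yl_12.

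In yl_11 against yl_10, 7 members (4.67%) were called and all were higher, against 4.16% of all features, 1.68% higher and 2.49% lower. None of the 7 reached a 2-fold change. Larger values that were not called were 1.27 for YALI1_E33336g (edgeR adjusted p = 0.34), 0.97 for XM_002143002.1 (0.116) and 0.94 for XM_002142946.1 (0.0565), named after their values were seen. Besides XM_501880.1 and YALI1_F14933g, given above, the largest rises among the called members were those of XM_505464.1, with a log2 fold change of 0.87 (edgeR adjusted p = 0.0398, SE 0.20), and YALI1_C26332g, at 0.31 (adjusted p = 0.0214, SE 0.07). YALI1_C26332g had 1639, 1708 and 1358 CPM in yl_10, then 1868, 1911 and 1966 CPM in yl_11, and 1944, 2018 and 1996 CPM in yl_12. The libraries of yl_10 were below all others. Its change in yl_12 against yl_10 was 0.40 (adjusted p = 0.00149, SE 0.07), and its neighbour YALI1_C26377g (XM_501999.1) was also higher there, by 0.34 (adjusted p = 0.000508, SE 0.05), and in yl_11, by 0.31 (adjusted p = 0.00443, SE 0.05).

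Calls in yl_11 against yl_10 depended on single libraries, as did the share called of all features. The number called was 3 without yl_10 replicate 1 (1.20% of all features), 4 without yl_10 replicate 2 (1.67%), 3 without yl_11 replicate 1 (1.58%), 2 without yl_11 replicate 2 (1.02%) or replicate 3 (1.72%), and 20 without yl_12 replicate 3 (8.43%), which enters through the shared estimate of spread. The call of XM_505464.1 was lost without yl_10 replicate 1 (adjusted p = 0.115), yl_11 replicate 1 (0.129), 2 (0.0549) or 3 (0.114), and yl_12 replicate 1 (0.065) or 2 (0.0507). That of YALI1_C26332g was lost without yl_10 replicate 1 (0.0607) and without yl_11 replicate 1 (0.0574), 2 (0.0905) or 3 (0.0834). With the length trend removed, YALI1_C26332g had 0.17 (0.11) and XM_505464.1 0.66 (0.114). In limma the adjusted p-values were 0.0785 and 0.0743, and with library totals as the only scaling XM_505464.1 had 0.0523.

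In yl_12 against yl_11, 2 members (1.33%) were called, 1 higher and 1 lower, against 7.04% of all features, 3.20% higher and 3.84% lower. They were XM_505464.1, with a log2 fold change of 0.83 (edgeR adjusted p = 0.0173, SE 0.18), and YALI1_C18209g, with -1.36 (adjusted p = 0.02, SE 0.27). At an unadjusted p below 0.05 there were 24 members, against 21.0% of all features. DESeq2 called 3, of which 1 was higher and 2 lower, against 7.51% of all features. The number called by edgeR was 0 without yl_12 replicate 1 (3.13% of all features) or 2 (3.08%), and 1 when yl_11 replicate 2 (3.69%) or 3 (3.72%) was left out. It was 6 when yl_10 replicate 3 was left out (9.82%) and 20 when yl_12 replicate 3 was (11.7%), where 19 of the 20 were lower. XM_505464.1 lost its call without yl_11 replicate 2 (0.0695) or 3 (0.0509) and yl_12 replicate 1 (0.0604) or 2 (0.0825), and in limma (0.0838), and YALI1_C18209g lost its own without yl_12 replicate 1 (0.0885) or 2 (0.0761).

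Of the 10 members with the highest FPKM, 3 were called in yl_11 against yl_10 and in yl_12 against yl_10, and none in yl_12 against yl_11. Of the 7 members over 1000 CPM 3, 3 and 0 were called in these comparisons, against 10.5%, 38.2% and 15.1% of longer XM_ features at that level. YALI1_D06233g had 2397, 2338 and 2110.5 CPM in yl_10, then 2712, 2706 and 2564 CPM in yl_11, and 2287, 2297 and 3054 CPM in yl_12. The libraries of yl_11 were above those of yl_10, but replicate 3 of yl_12 was higher than any of them. It was not called, with a change of 0.25 in yl_11 against yl_10 (edgeR adjusted p = 0.244, SE 0.11) and -0.03 in yl_12 against yl_11 (adjusted p = 0.907, SE 0.11). Without the 3 libraries that stand apart the same changes were 0.19 (adjusted p = 4.05e-07) and -0.17 (adjusted p = 8.98e-07). Those 3 were picked as the least alike, and leaving them out lowers the spread by construction. These p-values are therefore not comparable with those of 9 libraries.

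YALI1_E41367g had 2607, 2565 and 1933 CPM in yl_10, then 2878, 3007 and 2817 CPM in yl_11, and 2166, 2291 and 2727 CPM in yl_12. The libraries of yl_11 were above all others, and those of yl_10 and yl_12 overlapped. No contrast of it was called with 9 libraries. With 6 libraries it was higher in yl_11 than in yl_10, by 0.20 on the log2 scale (edgeR adjusted p = 2.84e-06), and lower in yl_12 than in yl_11, at -0.36 (adjusted p = 4.32e-11). The shortest member, XM_002142951.1, turned from 0.09 to -0.09 in yl_11 against yl_10 (adjusted p = 0.0428) and had -0.47 in yl_12 against yl_10 (adjusted p = 1.97e-14) with the same 6 libraries. Here too the choice of the 6 libraries lowers the spread by construction, and their p-values are not comparable with those of 9.

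YALI1_F03215g was steadier, with 2807, 2744 and 2653 CPM in yl_10, then 3063, 3153 and 3146 CPM in yl_11, and 3084, 3032 and 3235 CPM in yl_12. The libraries of yl_10 lay below all others. Its change of 0.24 in yl_12 against yl_10 (edgeR adjusted p = 0.00388, SE 0.05) was called in all 19 alternatives. That of 0.21 in yl_11 against yl_10 (adjusted p = 0.0263, SE 0.05) was lost without yl_10 replicate 1 (0.0704) or 2 (0.0894) and without yl_11 replicate 1 (0.0707), 2 (0.123) or 3 (0.0959), in limma (0.0785), and with the length trend removed, where it was 0.06 (0.565).

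Beneath the few calls the members shifted together by small amounts. In yl_11 against yl_10, 123 of the 150 (82.0%) had a log2 fold change above 0, with a median of 0.19, where 49.9% of all features did and their median was 0. For 48 members (32.0%) every library of yl_11 was above every library of yl_10 in CPM, against 10.1% of all features, and for 2 it was below, against 17.7%. In yl_12 against yl_11, 36 members (24.0%) were above 0 and the median was -0.14, and for 41 (27.3%) every library of yl_12 was below every library of yl_11, against 20.5% of all features, while 7 members were above, against 8.95%. Without yl_12 replicate 1 this median was -0.08. In yl_12 against yl_10 the median was 0.07, with 96 members (64.0%) above 0, and 13 members lay fully above (9.57% of all features) and 13 fully below (24.5%). These comparisons of libraries use CPM, scaled to library totals alone, while the fold changes also use the scaling factors of the fit. In each comparison more of all features lay fully below than fully above in CPM.

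The shift followed coding length across the table. In yl_11 against yl_10 the median log2 fold change was 0.19 for 154 tested features of at most 300 bp, 0.06 for those above 300 and up to 600 bp, 0.02 for those above 600 and up to 900 bp and -0.05 for those over 3000 bp. In yl_12 against yl_11 the order was the opposite, from -0.13 in the shortest class to 0.05 in the longest. When the trend with coding length was removed within each library, the medians of the 150 members became 0.03 in yl_11 against yl_10, -0.06 in yl_12 against yl_11 and 0 in yl_12 against yl_10. That step also takes out any difference between strains that follows length. Whether the length trend of the libraries differs between strains was not tested.

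**Figure D5:**
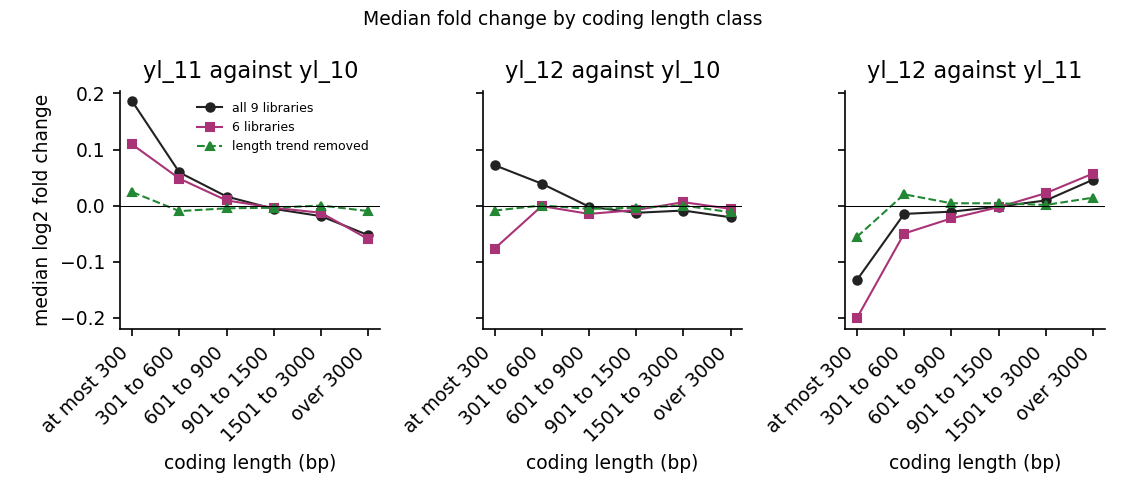
Median log2 fold change of tested XM_ features by class of coding length (bp), in a panel for each pair of strains. Lines stand for all 9 libraries, for the 6 left without the 3 libraries that stand apart, and for all 9 with the length trend removed. The shortest class lies at 0.19 in yl_11 against yl_10 and at -0.13 in yl_12 against yl_11, and its value in yl_12 against yl_10 changes sign from 0.07 to -0.08 with 6 libraries.

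The direction in yl_12 against yl_10 rested on the libraries that stand apart. Without those 3 libraries the median of the members was -0.07 in this comparison, and 38 were called, 12 higher and 26 lower, where 31.2% of all features were called, 15.6% in each direction. Without yl_10 replicate 3 alone the median was 0.005, and it was 0.007 without yl_12 replicate 3 alone, 0.14 when replicate 1 of yl_10 or of yl_12 was left out, and 0.11 when replicate 2 of yl_12 was. In yl_11 against yl_10 the 6 libraries gave 43 calls, 39 higher and 4 lower (20.1% of all features, 10.1% higher and 9.94% lower), with a median of 0.13. In yl_12 against yl_11 they gave 54 calls, 5 higher and 49 lower (24.6% of all features, 13.1% higher and 11.6% lower), with a median of -0.20. The F test then gave 68 members (38.3% of all features). Leaving out the least similar library of each strain lowers the spread by construction. All 9 calls of the comparisons of yl_11 with the other strains were among those of the 6 libraries, and so were 11 of the 13 in yl_12 against yl_10.

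Other treatments of these libraries gave further counts, each beside its share of all features. A term for the 3 libraries is 1 effect shared by yl_10 replicate 3, yl_11 replicate 1 and yl_12 replicate 3. The members' median deviations there were -0.18, -0.005 and 0.12, which 1 shared effect does not describe. The 3 were also picked as the least alike in these data, so counts with the term are not comparable with those without it. The term gave 19 members higher and 0 lower in yl_11 against yl_10 (13.1% of all features, 5.78% higher and 7.35% lower). It gave 14 higher and 5 lower in yl_12 against yl_10 (23.8%, as 11.6% and 12.2%), 2 higher and 10 lower in yl_12 against yl_11 (15.8%, as 8.80% and 7.04%), and 30 in the F test (27.7%). Leaving out only yl_12 replicate 3 gave 20 higher and 0 lower in yl_11 against yl_10 (8.43%, as 3.99% and 4.43%), 8 higher and 5 lower in yl_12 against yl_10 (16.1%, as 8.23% and 7.83%), and 1 higher and 19 lower in yl_12 against yl_11 (11.7%, as 6.01% and 5.65%). Removing the length trend gave 3 higher and 2 lower in yl_11 against yl_10 (3.79%, as 1.58% and 2.21%), 9 higher and 8 lower in yl_12 against yl_10 (15.2%, as 7.42% and 7.79%), 2 higher and 2 lower in yl_12 against yl_11 (6.96%, as 3.14% and 3.82%), and 13 in the F test (15.1%). Of the calls without the trend, 2 of 5 in yl_11 against yl_10 and 10 of 17 in yl_12 against yl_10 were also called with it.

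The neighbours of the called members were compared with them. Among called members with a locus tag and a tested neighbour in the gene order of ASM176148v1, a neighbour was called in the same direction for 1 of 5 in yl_11 against yl_10, 2 of 9 in yl_12 against yl_10 and 0 of 1 in yl_12 against yl_11. For all called features the shares were 13.4%, 22.8% and 11.6%. These members were YALI1_C26332g, given above, and YALI1_E11351g, whose neighbour YALI1_E11341g (XM_503724.1) fell by 0.15 (adjusted p = 0.0284, SE 0.04) in yl_12 against yl_10. Opposite in direction were YALI1_E09817g (XM_002143029.1), higher by 0.27 (SE 0.05, adjusted p = 0.00438 in edgeR, and 0.0733 with the length trend removed) in that comparison, and its neighbour YALI1_E09779g (XM_503684.1), at -1.63 (adjusted p = 9.48e-07, SE 0.10). So were YALI1_C18209g and its neighbour YALI1_C18258g, given above. In yl_12 against yl_11 that neighbour was also higher, by 0.35 (edgeR adjusted p = 0.0247, SE 0.08). How the authors counted reads of neighbours that overlap is not given in the sources used here.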

How the data were processed

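The authors deposited read counts, which are whole numbers without normalisation, and FPKM values, which equal the count divided by length and library total. The submitters' processing notes list the tools HTSeq 0.6.1 and DESeq 1.18.0 without saying what each did. Aligner, genome build and strand setting: not given in the sources used here. Coding length was the median of count / FPKM / library total over the libraries, scaled to bp. Accessions were matched without version to the RefSeq gene table of ASM176148v1, used for locus tags and gene order alone.

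All 6366 features entered 1 fit per setting in edgeR 4.0.16 (R 4.3.3), with TMM factors, the expression filter by strain, robust dispersions and strain as the only term. The quasi-likelihood test gave p-values, adjusted by Benjamini-Hochberg over all 6147 features tested, and calls are at an adjusted p below 0.05. The scripts were tested on simulated data. Alternatives used DESeq2 1.42.0, limma 3.58.1 on log2(FPKM + 1), other scalings, filters, libraries and member rules.

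Named members were the 10 with the highest FPKM, the 5 with the smallest adjusted p in the F test, those nearest the thresholds, and in each contrast up to 4 largest rises and falls that were called, at 10 CPM or more in the higher strain and without overlap. YALI1_E09817g, the neighbours and the 6-library values of single members were chosen after their values were seen. Members and lists were chosen with earlier results of these data known. Lists by product name, protein feature and promoter motif were planned and not used here, since the gene table gives none of these.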

Additional observations from a re-analysis of the deposited data

How the results depend on the processing

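The number of members called was sensitive to the libraries and the tool. Shares of all features called are given in brackets. For yl_11 against yl_10 the 7 calls (4.16%) became 4 with the replicate number as a block (2.46%). DESeq2 gave 13 (5.82%), limma gave 3 (3.22%) and a fit of these strains alone gave 16 (5.32%). A term for the 3 libraries that stand apart gave 19 (13.1%), and leaving them out gave 43 (20.1%). With 1 library left out there were 2 to 20 (1.02% to 8.43%). For yl_12 against yl_10 the 13 calls (14.8%) became 38 without the 3 libraries (31.2%). They became 10 to 13 with 1 left out (9.95% to 16.1%). For yl_12 against yl_11 the 2 calls (7.04%) became 4 with the length trend removed (6.96%) and 12 with the term (15.8%). There were 54 without the 3 libraries (24.6%), 5 in a fit of these strains alone (6.98%) and 6 in limma (5.82%). With 1 left out there were 0 to 20 (3.08% to 11.7%). The F test's 12 became 30 with the term and 68 without the 3 libraries, and 8 to 36 with 1 left out. With the length trend removed, yl_12 against yl_10 gave 9 higher and 8 lower (15.2%). Library totals alone gave 1 higher and 2 lower in yl_12 against yl_11 (6.69%).

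With the 65 members of at most 240 bp the calls were 2 (3.08%), 5 (7.69%), 2 (3.08%) and 4 (6.15%) for yl_11 against yl_10, yl_12 against yl_10, yl_12 against yl_11 and the F test. With the 247 of at most 360 bp they were 13 (5.26%), 24 (9.72%), 7 (2.83%) and 24 (9.72%), against 4.16%, 14.8%, 7.04% and 15.0% of all features. The share of counts was then 0.602%, 0.689% and 0.633% (240 bp) or 4.06%, 4.64% and 4.49% (360 bp) in yl_10, yl_11 and yl_12. For the 150 members the share of summed FPKM was 9.96%, 11.2% and 10.5%. With 1 library left out the share of counts of the 150 ranged from 2.14% to 2.32% in yl_10, 2.55% to 2.57% in yl_11 and 2.26% to 2.47% in yl_12. No called fold change reversed, and 9 of 22 calls held in all 19 alternatives; the cause was not tested for the others. Same-numbered libraries of different strains had deviations correlated at r from -0.39 to 0.31 over 9 pairs, and not every library correlated best with its own number. The libraries that stand apart do not all have the same number and weigh on these values. The check therefore cannot decide whether the numbers pair the libraries. The block gave 10 calls in yl_12 against yl_10 (12.3% of all features), 2 in yl_12 against yl_11 (5.34%) and 10 in the F test (11.5%). It ended the calls of XM_505464.1 (0.0703) and YALI1_F03215g (0.062) in yl_11 against yl_10 and of YALI1_E06119g (0.0537) in yl_12 against yl_10, among those described. Of the members 51 lay below 10 CPM and 12 had fewer than 10 counts in some library. The part of depth in their calls was not tested.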
